A study of Homo sapiens with 9 samples.

Results

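The genes described are 31 genes of cholesterol and fatty acid synthesis, taken by name from a table of 15436 genes measured in Raji, an established human B-cell line from a Burkitt lymphoma. They were chosen for their known roles and comprise 18 sterol pathway genes, 6 genes that control the pathway's transcription factors or carry sterols, and 7 genes of fatty acid synthesis and desaturation. RNA was sequenced from 9 libraries, 3 from cells given hydroxyurea (HU), 3 from cells given thymidine and nocodazole (Thy-Noc) and 3 from cells given the solvent DMSO. HU inhibits ribonucleotide reductase and slows DNA replication. Excess thymidine also halts replication, and nocodazole depolymerises microtubules and arrests cells in mitosis. All 3 groups are the same line, and the sources used here state neither dose nor time. The labels do not say that replicates came from separate cultures, so p-values reflect only differences among these libraries, which could be technical.

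Cells build cholesterol from acetyl-CoA through the mevalonate pathway, which makes isoprenoids, then squalene, then lanosterol, and finally cholesterol. The transcription factors SREBP1 and SREBP2, encoded by SREBF1 and SREBF2, drive this pathway and fatty acid synthesis. They are held in the endoplasmic reticulum by SCAP and the INSIG proteins when sterols are plentiful, and SCAP escorts them to the Golgi for cleavage when sterols are low. Dividing lymphoid cells need these lipids for new membrane.

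Promoters of SREBP target genes often hold a sterol regulatory element beside a CCAAT box, which the factor NF-Y binds, so the windows of the members were searched for both. RefSeq windows on GRCh38.p14, each of 300 bases and lying mostly before an annotated start, were found for 27 of the 31 genes, 37 windows in all. ACAT2, FDFT1, SQLE and FASN had none, so their promoters were not searched. Those of STARD4, HSD17B7 and INSIG2 are shown because these genes, and ACAT2, stood higher in all 3 HU libraries than in any DMSO library. That of SREBF2 is shown because, among the 27 genes searched, it alone holds an exact match to the sterol regulatory element core used, TCACNCCAC. An element differing from this core by a base was not counted, so genes without a match may still hold an element. Capitals mark that core or CCAAT on either strand, where the other strand reads GTGGNGTGA or ATTGG, and no marked matches overlapped. The STARD4 window lies at chr5:111512486-111512785 on the minus strand, that of HSD17B7 at chr1:162790452-162790751 on the plus strand, the first of 2 overlapping INSIG2 windows at chr2:118088221-118088520 on the plus strand and that of SREBF2 at chr22:41832855-41833154 on the plus strand.
STARD4: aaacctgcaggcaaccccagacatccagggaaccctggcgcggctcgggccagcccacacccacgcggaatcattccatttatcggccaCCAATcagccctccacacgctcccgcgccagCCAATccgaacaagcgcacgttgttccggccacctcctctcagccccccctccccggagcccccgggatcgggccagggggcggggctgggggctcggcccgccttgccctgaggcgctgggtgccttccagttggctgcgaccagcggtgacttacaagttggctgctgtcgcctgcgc
HSD17B7: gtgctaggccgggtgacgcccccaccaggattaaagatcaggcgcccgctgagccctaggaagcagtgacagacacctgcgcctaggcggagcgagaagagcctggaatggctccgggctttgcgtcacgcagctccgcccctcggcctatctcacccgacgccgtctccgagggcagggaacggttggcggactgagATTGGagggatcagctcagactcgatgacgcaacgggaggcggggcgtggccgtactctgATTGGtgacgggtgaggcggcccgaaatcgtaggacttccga
INSIG2: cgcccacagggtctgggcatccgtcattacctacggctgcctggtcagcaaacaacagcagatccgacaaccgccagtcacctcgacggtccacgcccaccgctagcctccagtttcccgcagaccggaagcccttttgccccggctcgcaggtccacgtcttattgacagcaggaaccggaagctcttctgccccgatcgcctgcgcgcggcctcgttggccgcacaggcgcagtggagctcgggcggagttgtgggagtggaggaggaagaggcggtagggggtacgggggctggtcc
SREBF2: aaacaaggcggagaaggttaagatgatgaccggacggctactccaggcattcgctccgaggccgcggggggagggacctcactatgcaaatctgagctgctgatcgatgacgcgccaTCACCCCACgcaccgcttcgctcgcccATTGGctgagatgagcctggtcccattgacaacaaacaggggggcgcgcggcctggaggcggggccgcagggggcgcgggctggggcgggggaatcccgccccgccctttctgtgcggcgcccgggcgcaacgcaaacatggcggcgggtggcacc
The windows of STARD4 and HSD17B7 each hold 2 CCAAT boxes and no match to the core, both windows of INSIG2 hold no match to either, and that of SREBF2 holds 1 of each. CCAAT was found in 24 of the 37 member windows (64.9%), which belong to 20 of the 27 genes, against 34.6% of all 35116 windows. The core was found in 1 member window (2.70%) and in 1.13% of all windows. Windows of the same gene can share bases, so these shares are descriptions.

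The B-cell label held in the data, since all 8 B-cell markers checked were listed and summed to between 1664 and 2644 CPM (counts scaled to library size) across the 9 libraries. Single markers differed in level. CD22, the lowest of the 8, stood at 0.915 to 8.64 CPM and MS4A1 at 13.0 to 30.3 CPM. Of 18 markers of T and NK cells, myeloid cells, and hepatocytes and adipocytes, 3 were listed. NKG7, the 1 listed of 6 T and NK markers, stood at 0.229 to 0.734 CPM in HU, 0.191 to 0.456 CPM in Thy-Noc and 0.159 to 0.913 CPM in DMSO. LYZ and ITGAM, the 2 listed of 6 myeloid markers, summed to 1.21 to 3.25 CPM in HU, 0.765 to 0.973 CPM in Thy-Noc and 0.840 to 1.06 CPM in DMSO. Library totals ran from 74940755 to 110485145. Fewer cells expressing a gene and less RNA per cell cannot be told apart in these bulk libraries.

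All 31 members were in the table, and 30 passed the filter of at least 1 CPM in at least 3 libraries. FADS1, the delta-5 desaturase of polyunsaturated fatty acids, did not pass, at 0.257 to 0.907 CPM in HU, 0.164 to 3.09 CPM in Thy-Noc and 0.369 to 0.761 CPM in DMSO. Many members differed widely between libraries of the same group. Whether each deposited value counts every read of its gene could not be settled from the table, so a CPM here is the level of the deposited value. For 8 of the 30 (26.7%), the highest library of some group exceeded the lowest at least 10-fold after adding 0.5 CPM, against 16.2% of the 11346 genes tested. These 8 are MVK, MVD, FDFT1, TM7SF2, DHCR7, INSIG1, SREBF1 and SCAP. For 11 members (36.7%) the libraries of every group stayed within 2-fold of each other, again after adding 0.5 CPM, against 49.4% of all tested genes. These 11 are ACACA, FASN, CYP51A1, SCD, ACAT2, HSD17B7, PMVK, ELOVL6, SC5D, ACLY and EBP.

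**Figure D1:**
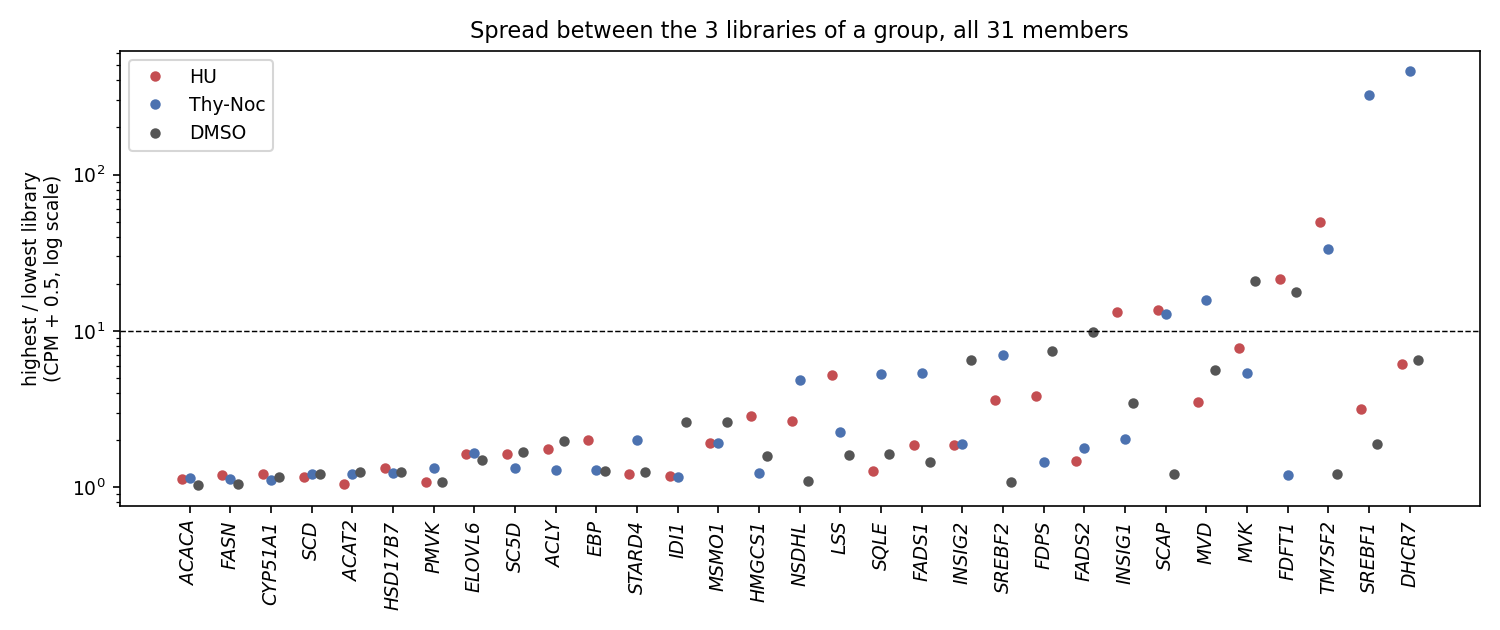
Ratio of the highest to the lowest of the 3 libraries of a group, after adding 0.5 CPM, on a log axis, for all 31 members ordered by their largest ratio, with HU, Thy-Noc and DMSO as separate points. The dashed line marks a ratio of 10, and the ratios of DHCR7 and SREBF1 reach 456 and 322 in Thy-Noc.

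DHCR7, which makes cholesterol from 7-dehydrocholesterol in the last step of its branch, had the widest spread, at 674, 130.4 and 798 CPM in HU, 630.5, 0.883 and 519 CPM in Thy-Noc, and 575, 88.4 and 407 CPM in DMSO. The low library was replicate 2 in each group. FDFT1, squalene synthase, stood at 73.2, 61.4 and 2.95 CPM in HU, 77.9, 68.0 and 65.0 CPM in Thy-Noc, and 56.1, 55.2 and 2.68 CPM in DMSO. Here replicate 3 was the low library in HU and DMSO, while the Thy-Noc libraries were close together. TM7SF2, a sterol C14 reductase, stood at 1.28, 5.65 and 87.4 CPM in HU, 50.1, 1.09 and 1.004 CPM in Thy-Noc, and 4.04, 4.78 and 3.85 CPM in DMSO. MVK, mevalonate kinase, had a high library of 38.3 CPM in DMSO beside 1.96 and 1.37 CPM. The 8 members with such spreads have a median of 17 annotated transcripts in GENCODE release 29, from 6 to 26. The 11 steady members have a median of 8, from 1 to 23. The 11 tested members between them, with spreads of 2-fold to 10-fold, also have a median of 8, from 3 to 21. The part of transcript choice in these spreads was not tested. Exons of 4 of the 8 overlap another measured gene's (RAI1 for SREBF1, VPS51 for TM7SF2, MMAB for MVK, ENSG00000255046 for FDFT1), and the part of those reads was not tested. Overlaps with measured genes were also found for ACAT2, FADS1, FADS2, FDPS, IDI1, SREBF2 and STARD4, outside these 8.

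HU was first set against DMSO, to ask how these genes stood in cells given HU. ACAT2, the cytosolic thiolase that joins acetyl-CoA units at the head of the sterol pathway, was higher in HU. STARD4, a soluble carrier that moves cholesterol between membranes, and HSD17B7, a 3-ketosteroid reductase of the post-lanosterol steps, had higher values in every HU library than in any DMSO library but did not pass the test over all genes. The large fatty acid synthesis enzymes had HU values close to those in DMSO.

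ACAT2 (ENSG00000120437) lies on the plus strand of chromosome 6 from 159760328 to 159779055 in GRCh38. Its values were 156, 148 and 155 CPM in HU, against 89.8, 71.6 and 77.9 CPM in DMSO. All 3 HU libraries stood above all 3 DMSO libraries, and the spread within HU was small. The means were 153 ± 4.23 CPM in HU and 79.8 ± 9.22 CPM in DMSO (SD, n = 3 each), a 1.92-fold difference. On the log2 scale the change was 0.94 ± 0.12 (SE), with an adjusted p of 0.0177 (quasi-likelihood test of edgeR, Benjamini-Hochberg over 11346 genes). Without DMSO replicate 2 or 3, or HU replicate 1 or 3, the edgeR adjusted p was between 0.0603 and 0.0662. It was 0.0530 in a fit of the 6 HU and DMSO libraries alone, and 0.0706 with replicate numbers blocked. Without any single library the log2 fold change ran from 0.88 to 1.04.

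Exons of ACAT2 overlap those of TCP1, a chaperonin subunit gene, on the opposite strand, and the strand setting of the counting is not stated. TCP1 stood at 1755, 1554 and 1797 CPM in HU, against 2490, 2545 and 2026 CPM in DMSO. Its log2 fold change was −0.47 ± 0.13, opposite in sign to that of ACAT2, with an edgeR adjusted p of 0.106. The part of shared reads in the ACAT2 values was not tested.

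STARD4 (ENSG00000164211) lies on chromosome 5, bases 111496033 to 111512590, minus strand. It stood at 90.7, 109.6 and 107 CPM in HU, against 54.1, 43.0 and 52.1 CPM in DMSO. The 2 groups did not overlap. The means were 103 ± 10.3 CPM in HU and 49.8 ± 5.93 CPM in DMSO (SD, n = 3 each). That was 1.04 ± 0.27 on the log2 scale and missed the threshold (edgeR adjusted p 0.0819). The value passed with DESeq2 (adjusted p 0.00356), with edgeR without Thy-Noc replicate 2 (0.0370), and with edgeR without genes of 10-fold within-group spread (0.0469). STARD4 missed in every other fit by edgeR or limma, with adjusted p up to 0.22 (edgeR without DMSO replicate 2). Its antisense neighbour STARD4-AS1 stood at 0.177 to 0.777 CPM in HU and 0.305 to 1.55 CPM in DMSO.

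HSD17B7 (ENSG00000132196) lies on chromosome 1, bases 162790702 to 162812817, plus strand. It stood at 79.5, 89.6 and 67.6 CPM in HU, against 64.4, 57.0 and 51.4 CPM in DMSO. The lowest HU library was just above the highest DMSO library. Its log2 fold change of 0.45 ± 0.15 did not pass (edgeR adjusted p 0.142), while DESeq2 called it at 0.0251. A copy of this gene, HSD17B7P2, had low values of 1.32, 2.01 and 2.20 CPM in HU, against 0.913, 0.383 and 0.649 CPM in DMSO, and reads of such copies can be exchanged in counting.

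**Figure D2:**
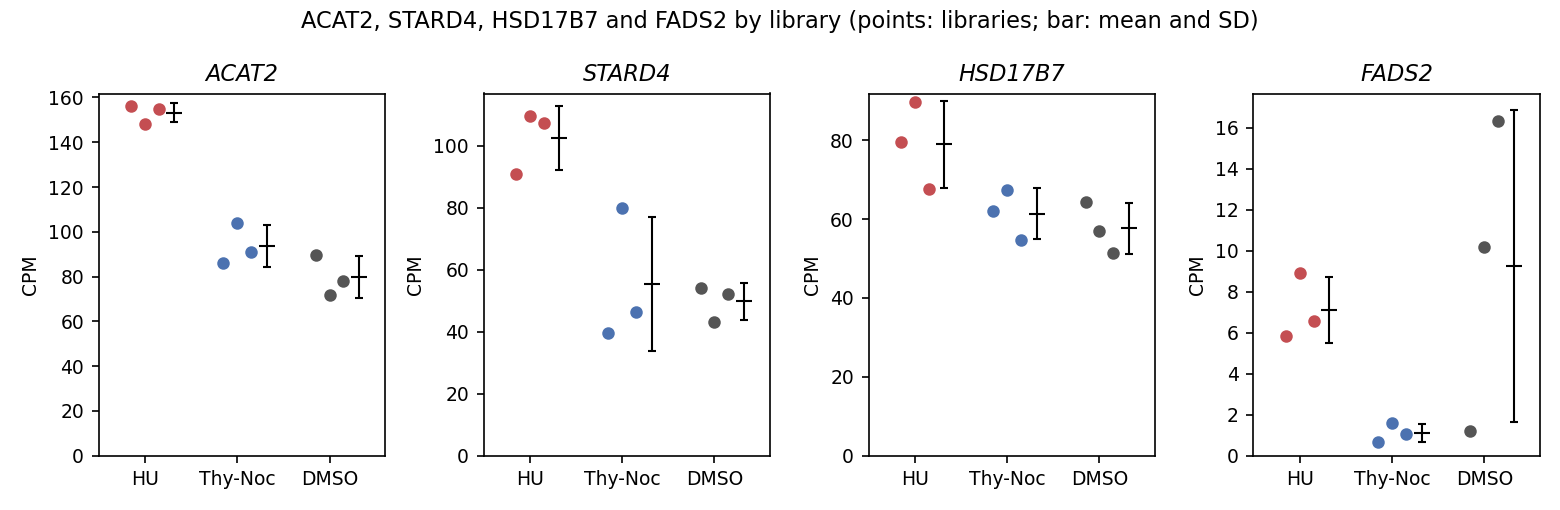
CPM of ACAT2, STARD4, HSD17B7 and FADS2 in each library of the HU, Thy-Noc and DMSO groups, with the mean and SD of the 3 libraries beside the points, on axes that start at 0. The HU libraries of ACAT2 sit between 148 and 156 CPM, above all other libraries, and the FADS2 libraries of Thy-Noc lie between 0.669 and 1.57 CPM.

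Over the whole list, 1 of the 30 tested members passed the test in HU (3.33%), against 3.56% of all tested genes, so the share of calls was near that of the table as a whole. Of all genes, 2% were called higher and 1.56% lower. DESeq2 called 3 members (10%), ACAT2, STARD4 and HSD17B7, against 18.8% of all genes, and limma 1 (3.33%), against 4.95%. At an unadjusted p under 0.05 there were 3 members, all higher, against 21.2% of all genes in either direction. The 2 groups did not overlap for 6 members (20%), against 30.7% of all genes. Of these 6, ACAT2, STARD4, HSD17B7 and INSIG2 were above DMSO (15.5% of all genes were), and PMVK and SCAP were below (15.3% of all genes were). Positive log2 fold changes were found in 21 of 30 members (70%), against 51.3% of all tested genes, and the median was 0.23, against 0.018 for all tested genes. This median was 0.0065 without HU replicate 1, 0.13 without DMSO replicate 2 and 0.41 without DMSO replicate 1. The median was 0.24 in the 18 sterol pathway genes, 0.62 in the 6 control and transport genes and −0.0019 in the 6 tested fatty acid genes.

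Along the sterol pathway, the enzymes after ACAT2 did not pass. HMGCS1, HMG-CoA synthase, stood at 177, 61.4 and 70.5 CPM in HU, against 119, 75.4 and 79.5 CPM in DMSO, so replicate 1 was the high library in both groups. In Thy-Noc replicate 1 was the low library of HMGCS1, at 84.6 CPM beside 105 and 94.6 CPM. PMVK, phosphomevalonate kinase, stood at 15.4, 16.3 and 15.1 CPM in HU, against 18.3, 19.7 and 18.7 CPM in DMSO. It was steady within each group and slightly lower in every HU library. The isoprenoid-forming enzymes overlapped between the groups. IDI1, isopentenyl diphosphate isomerase, had HU values of 76.8 to 90.4 CPM and DMSO values of 53.0 to 139 CPM. FDPS, which makes farnesyl diphosphate, had 26.3 to 103 CPM in HU and 9.29 to 72.8 CPM in DMSO. In the branch from squalene onward, CYP51A1, lanosterol demethylase, stood at 63.7, 59.6 and 52.2 CPM in HU, against 55.4, 47.3 and 48.5 CPM in DMSO, with a small overlap. The C4 demethylation enzymes MSMO1 and NSDHL had 2.42 to 5.07 CPM and 6.85 to 19.1 CPM in HU, against 0.840 to 3.005 CPM and 9.72 to 10.6 CPM in DMSO. None of these 3 separated the groups. SQLE, squalene epoxidase, a rate-controlling enzyme, was low in these values, at 0.963 to 1.35 CPM in HU and 0.859 to 1.73 CPM in DMSO. LSS, lanosterol synthase, had 1 high library in HU, at 24.2 CPM beside 4.19 and 5.93 CPM, and DMSO values of 4.88 to 8.15 CPM. EBP, a sterol isomerase, and SC5D, a sterol desaturase, overlapped between the groups, with EBP at 34.7 to 69.6 CPM in HU and 49.1 to 62.9 CPM in DMSO, and SC5D at 2.86 to 4.99 CPM in HU and 2.59 to 4.68 CPM in DMSO. The kinase and decarboxylase of mevalonate, 2 of the genes with wide spread, also overlapped. MVK had 3.72 to 32.2 CPM in HU and 1.37 to 38.3 CPM in DMSO, and MVD, mevalonate diphosphate decarboxylase, had 1.52 to 6.61 CPM in HU and 2.02 to 13.6 CPM in DMSO.

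The control genes of the SREBP circuit had no call, and their replicate spread was wide. SREBF1 stood at 2.78, 0.531 and 0.772 CPM in HU, against 0.875, 0.308 and 1.03 CPM in DMSO, and SREBF2 at 0.177, 0.0907 and 1.64 CPM in HU, against 0.913, 0.933 and 1.03 CPM in DMSO. In both genes the groups overlapped, and the spread within HU was wide. SCAP had 157, 11.6 and 164 CPM in HU, against 189, 197 and 230.4 CPM in DMSO. HU replicate 2 stood apart, and the other 2 HU libraries were also below the DMSO libraries. INSIG1, a sterol-sensing anchor of SCAP that SREBP itself induces, had 11.6, 12.3 and 0.467 CPM in HU, against 8.67, 2.15 and 8.16 CPM in DMSO. INSIG2, its relative, had 10.05, 19.0 and 11.8 CPM in HU, against 7.20, 8.998 and 0.954 CPM in DMSO. The INSIG2 groups did not overlap. The log2 fold changes were 0.89 ± 2.10 for SREBF1, −0.58 ± 1.15 for SREBF2, −0.89 ± 1.08 for SCAP, 0.36 ± 1.04 for INSIG1 and 1.25 ± 0.73 for INSIG2, with edgeR adjusted p from 0.389 to 0.909. SREBF2 was at −2.82 without HU replicate 3, −0.14 without HU replicate 1 and −0.068 without HU replicate 2. Without single libraries SCAP ran from −1.28 to −0.35, INSIG1 from −0.072 to 0.92 and INSIG2 from 0.76 to 1.75. SREBF1 ran from 0.53 to 1.27 in the fits that kept it. Without HU replicate 1, DMSO replicate 3 or Thy-Noc replicate 2, SREBF1 did not pass the filter on low counts. Its fold change without the high HU library, replicate 1, is therefore not known.

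**Figure D3:**
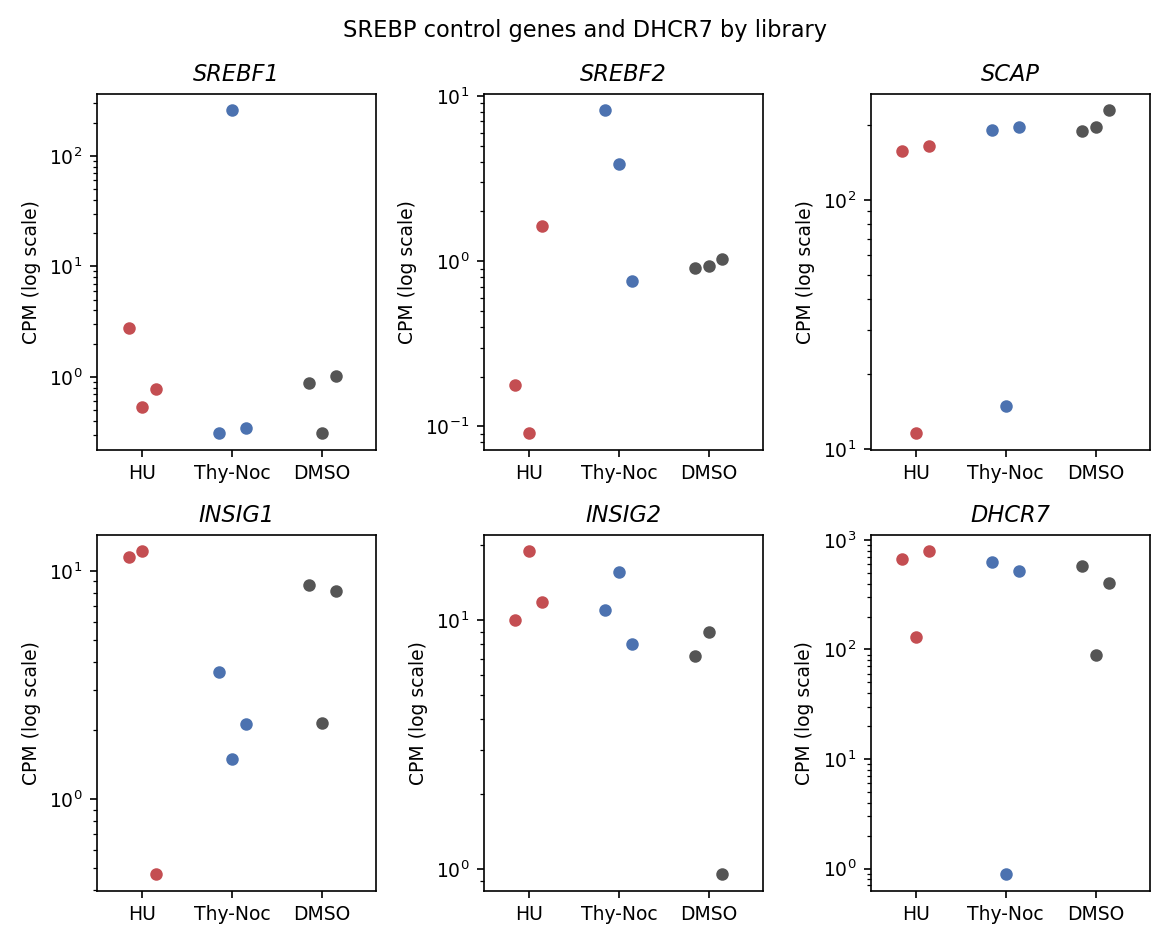
CPM on log axes in each library of the HU, Thy-Noc and DMSO groups for SREBF1, SREBF2, SCAP, INSIG1 and INSIG2, with DHCR7 as the member of widest spread. Single libraries stand far from their group, such as Thy-Noc replicate 2 of SREBF1 at 261 CPM, HU replicate 2 of SCAP at 11.6 CPM and Thy-Noc replicate 2 of DHCR7 at 0.883 CPM.

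Among the fatty acid synthesis genes, FASN, ACACA and SCD were measured most steadily, and FADS1 and FADS2 least. FASN, fatty acid synthase, which builds palmitate, stood at 1540, 1738 and 1445 CPM in HU, against 1794, 1719 and 1701 CPM in DMSO. The HU range reached into that of DMSO. FASN had a log2 fold change of −0.14 ± 0.095 with a 95% interval of −0.37 to 0.080. ACACA, acetyl-CoA carboxylase, which makes the malonyl-CoA that FASN uses, stood at 461, 518 and 493 CPM in HU, against 513, 498 and 504 CPM in DMSO. Its log2 fold change of −0.041 ± 0.083 had a 95% interval of −0.24 to 0.15, and the sign turned under total-count scaling, to 0.060. SCD, stearoyl-CoA desaturase, stood at 467, 506 and 437 CPM in HU, against 438, 360.4 and 397 CPM in DMSO. The lowest HU library was just under the highest DMSO library. For SCD the log2 fold change was 0.24 ± 0.12, with a 95% interval of −0.033 to 0.51. ACLY, which makes cytosolic acetyl-CoA from citrate, was less even, at 141, 110.04 and 79.9 CPM in HU, against 89.8, 154 and 78.1 CPM in DMSO, a log2 fold change of 0.038 ± 0.30 with a 95% interval of −0.68 to 0.75. None of these 4 genes passed (edgeR adjusted p 0.292 to 0.969). FADS2, the delta-6 desaturase that starts the synthesis of long polyunsaturated fatty acids, stood at 5.86, 8.91 and 6.57 CPM in HU, against 1.20, 10.2 and 16.3 CPM in DMSO. Its DMSO libraries spanned the HU range, and the log2 fold change of −0.38 ± 0.79 (edgeR adjusted p 0.871) became 0.16 with limma. ELOVL6, which elongates palmitate, overlapped between the groups, at 30.3 to 50.05 CPM in HU and 23.4 to 35.0 CPM in DMSO.

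**Figure D4:**
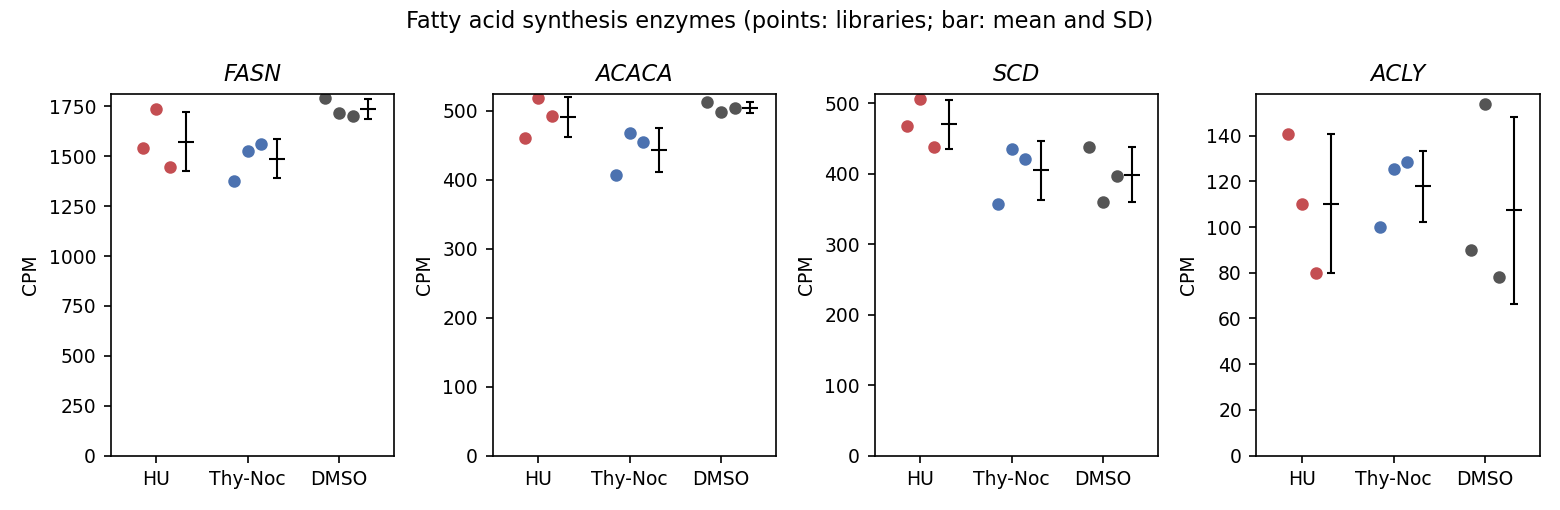
CPM of FASN, ACACA, SCD and ACLY in each library of the HU, Thy-Noc and DMSO groups, with the mean and SD of the 3 libraries beside the points, on axes that start at 0. The 3 libraries of each group lie close together for FASN, ACACA and SCD, and the Thy-Noc libraries of FASN, at 1378 to 1563 CPM, sit below the DMSO libraries, at 1701 to 1794 CPM.

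The second comparison, Thy-Noc against DMSO, asked the same of cells given thymidine and nocodazole. No member passed the test by edgeR, against 0.0353% of all genes (0.0264% higher, 0.00881% lower). DESeq2 called 1 member (3.33%), FADS2, against 1.58% of all genes, and limma 0, against 0.106%. An unadjusted p under 0.05 was found for 3 members by edgeR, FADS2, SREBF1 and FASN (4.49% of all genes). FASN and ACACA had lower values in every Thy-Noc library than in any DMSO library.

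FASN stood at 1378, 1525 and 1563 CPM in Thy-Noc, against 1794, 1719 and 1701 CPM in DMSO. ACACA stood at 407, 468 and 455 CPM in Thy-Noc, against 513, 498 and 504 CPM in DMSO. In both genes the 2 groups did not overlap. The log2 fold changes were −0.22 ± 0.095 for FASN and −0.19 ± 0.083 for ACACA, each with an edgeR adjusted p of 1 and with 95% intervals of −0.45 to −0.00040 and −0.38 to 0.0063. SCD, at 357, 436 and 421 CPM in Thy-Noc against 438, 360.4 and 397 CPM in DMSO, overlapped, with a log2 fold change of 0.022 ± 0.12 (−0.022 under total-count scaling) and a 95% interval of −0.25 to 0.29. ACLY had 100.03 to 128 CPM in Thy-Noc and 78.1 to 154 CPM in DMSO (log2 fold change 0.14 ± 0.30).

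FADS2 stood at 0.669, 1.57 and 1.08 CPM in Thy-Noc, against 1.20, 10.2 and 16.3 CPM in DMSO. DMSO replicate 1 fell within the Thy-Noc range, so the 2 groups overlapped. The change of −3.06 ± 0.86 on the log2 scale did not pass (edgeR adjusted p 1), and DESeq2 called it lower (adjusted p 0.0156). Exons of FADS2 overlap FADS1 on the other strand and FEN1, a DNA repair nuclease gene, on the same strand. FEN1 stood at 129 to 171 CPM in Thy-Noc and 141 to 150.2 CPM in DMSO, and the part of shared reads in the FADS2 values was not tested.

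In the control circuit, SREBF1 stood at 0.314, 261 and 0.342 CPM in Thy-Noc, against 0.875, 0.308 and 1.03 CPM in DMSO. Replicate 2 alone was high, and the other 2 Thy-Noc libraries lay within the DMSO range. The log2 fold change of 6.89 ± 2.68 did not pass (edgeR adjusted p 1). It was 3.58 with replicate numbers blocked and 2.24 with limma, and without that library SREBF1 did not pass the filter on low counts. SREBF2 had 8.25, 3.87 and 0.756 CPM in Thy-Noc, against 0.913, 0.933 and 1.03 CPM in DMSO (log2 fold change 2.16 ± 1.19), with 2 Thy-Noc libraries above and 1 below the DMSO range. SCAP had 190.4, 14.9 and 196 CPM in Thy-Noc, against 189, 197 and 230.4 CPM in DMSO, a log2 fold change of −0.62 ± 1.08. INSIG1 had 3.61, 1.51 and 2.13 CPM in Thy-Noc, against 8.67, 2.15 and 8.16 CPM in DMSO (−1.39 ± 1.06), and INSIG2 11.0, 15.7 and 8.04 CPM in Thy-Noc, against 7.20, 8.998 and 0.954 CPM in DMSO (1.02 ± 0.73). STARD4 had 39.7, 80.0 and 46.3 CPM in Thy-Noc, against 54.1, 43.0 and 52.1 CPM in DMSO, a log2 fold change of 0.15 ± 0.26.

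Of the sterol pathway in Thy-Noc, ACAT2 stood at 86.1, 104 and 91.0 CPM in Thy-Noc, against 89.8, 71.6 and 77.9 CPM in DMSO. The ranges overlapped, and the log2 fold change was 0.23 ± 0.12 with a 95% interval of −0.039 to 0.50. HSD17B7 had 54.7 to 67.4 CPM in Thy-Noc and 51.4 to 64.4 CPM in DMSO (log2 fold change 0.091 ± 0.15). EBP was lower in every Thy-Noc library, at 42.4, 43.7 and 34.0 CPM in Thy-Noc against 49.1, 62.9 and 50.6 CPM in DMSO, and FDFT1 was higher in every one, at 65.0 to 77.9 CPM in Thy-Noc against 2.68 to 56.1 CPM in DMSO, without passing the test. PMVK had 16.4 to 22.0 CPM in Thy-Noc and 18.3 to 19.7 CPM in DMSO, and CYP51A1 46.5 to 51.7 CPM in Thy-Noc and 47.3 to 55.4 CPM in DMSO. Over the list, 4 of 30 members did not overlap (13.3%), FDFT1 above DMSO and FASN, ACACA and EBP below, against 9.97% of all genes (5.18% above, 4.79% below). Of the 30, 20 had a positive log2 fold change (66.7%, against 51.1% of all genes), with a median of 0.11 against 0.0060 for all genes. That median was 0.021 without Thy-Noc replicate 2, 0.058 and 0.065 without Thy-Noc replicates 1 and 3, 0.042 without DMSO replicate 2 and 0.22 without DMSO replicate 1.

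The third comparison, HU against Thy-Noc, set the treatments against each other directly and tests the difference between their effects, since both share the DMSO libraries. ACAT2 was higher in HU. STARD4, HSD17B7 and FADS2 also stood higher in every HU library than in any Thy-Noc library, without passing.

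ACAT2 stood at 156, 148 and 155 CPM in HU, against 86.1, 104 and 91.0 CPM in Thy-Noc, with all HU libraries above. The means were 153 ± 4.23 CPM in HU and 93.7 ± 9.27 CPM in Thy-Noc (SD, n = 3 each), a 1.63-fold difference. This change of 0.71 ± 0.12 on the log2 scale passed the test (edgeR adjusted p 0.0385). The call ended without any 1 of the 9 libraries, HU, Thy-Noc or DMSO (edgeR adjusted p 0.0615 to 0.132), with log2 fold changes of 0.66 to 0.80. It also ended with no filter on low counts (0.0591), with the 6 libraries alone (0.116) and with the replicate block (0.117). TCP1, across the strand from ACAT2, had a log2 fold change of −0.41 ± 0.13 (edgeR adjusted p 0.161).

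STARD4 stood at 90.7, 109.6 and 107 CPM in HU, against 39.7, 80.0 and 46.3 CPM in Thy-Noc. Thy-Noc replicate 2 was nearest to HU, and the 2 groups did not overlap. STARD4 had a log2 fold change of 0.89 ± 0.27 (edgeR adjusted p 0.136), and without Thy-Noc replicate 2 it was 1.26 and passed (edgeR adjusted p 0.0499). FADS2 stood at 5.86, 8.91 and 6.57 CPM in HU, against 0.669, 1.57 and 1.08 CPM in Thy-Noc, a log2 fold change of 2.68 ± 0.84 that did not pass by edgeR (adjusted p 0.153) and did by DESeq2 (0.00993). HSD17B7 stood at 79.5, 89.6 and 67.6 CPM in HU, against 62.0, 67.4 and 54.7 CPM in Thy-Noc, and the lowest HU library was just above the highest Thy-Noc library (0.36 ± 0.15, edgeR adjusted p 0.242). SREBF1 and SREBF2 had log2 fold changes of −6.00 ± 2.57 and −2.74 ± 1.22, with overlapping groups. For SCAP, INSIG1 and INSIG2 they were −0.27 ± 1.07, 1.74 ± 1.07 and 0.23 ± 0.72. For FASN, ACACA, SCD and ACLY they were 0.081 ± 0.095, 0.15 ± 0.083, 0.22 ± 0.12 and −0.098 ± 0.30, that of ACLY turning to 0.040 under total-count scaling. None of these 9 passed, with edgeR adjusted p from 0.259 to 0.947.

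Of the 30 tested members, 1 was called (3.33%), against 1.75% of all genes (0.696% higher, 1.06% lower), and 4 had an unadjusted p under 0.05, against 19.4% of all genes. DESeq2 called 3 members (10%), against 16.1% of all genes, and limma 1 (3.33%), against 2.87%. The groups did not overlap for 8 members (26.7%), against 24.9% of all genes (12.9% higher, 12% lower). HU was the higher group in 7 of them (ACAT2, STARD4, FADS2, HSD17B7, CYP51A1, SCD and IDI1) and the lower group for PMVK. Of the 30, 21 had a positive log2 fold change (70%, against 50.7% of all genes), with a median of 0.23 against 0.0096.

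**Figure D5:**
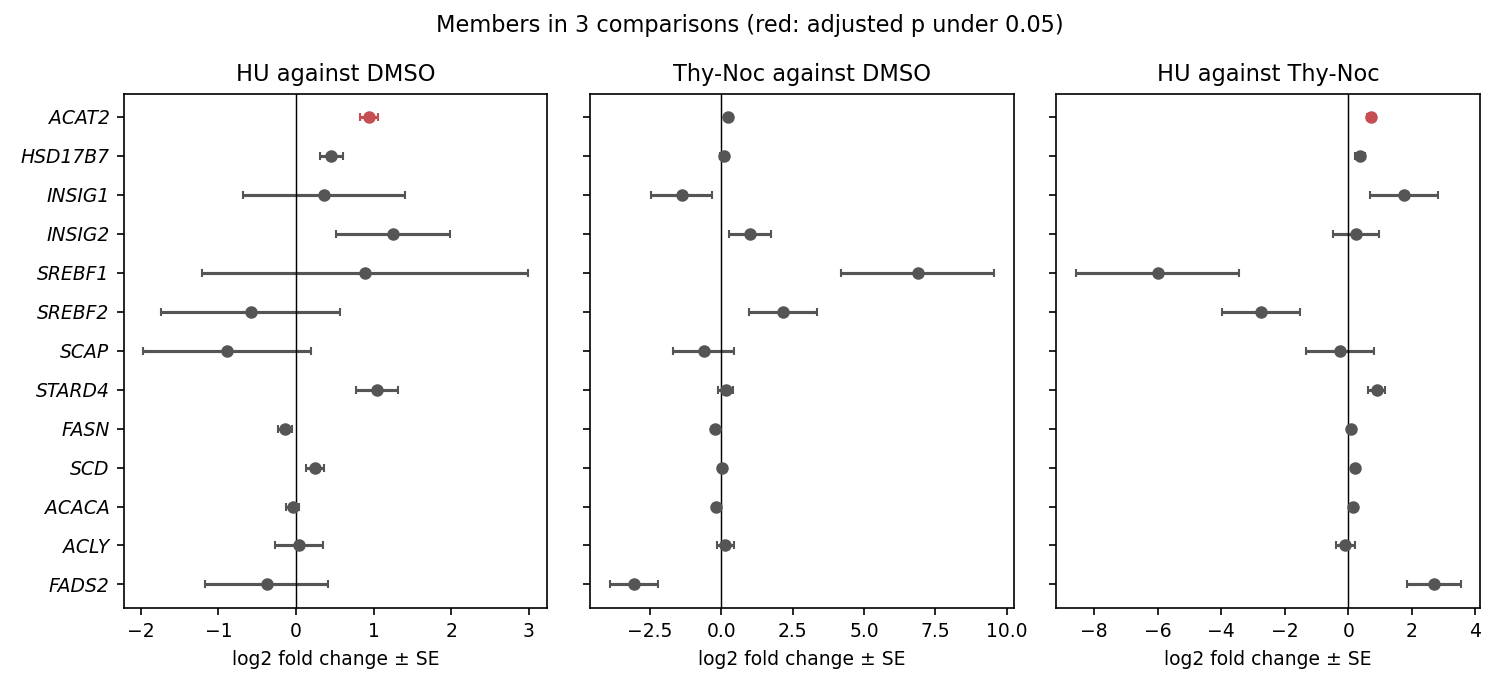
Log2 fold changes with their SE for the 13 members given in full, in HU against DMSO, Thy-Noc against DMSO and HU against Thy-Noc, each panel with its own axis, and adjusted p under 0.05 in red. ACAT2 is the red point, at 0.94 against DMSO and 0.71 against Thy-Noc, and SREBF1 has the widest bars.

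A further 115 genes around the pathway were listed in 8 groups. They cover other sterol enzymes, the isoprenoid branch, SREBP processing and sterol-regulated degradation, sterol uptake and storage, the oxysterol receptors and efflux, fatty acid supply and activation, glycerolipid synthesis and fatty acid oxidation. Of these, 99 were tested. ACSL1, which couples long-chain fatty acids to coenzyme A for use in lipid synthesis or oxidation, was the 1 gene called in HU against DMSO (1.01% of the 99, against 3.56% of all genes). The ACSL1 values were 535, 467 and 537 CPM in HU, 320.1, 362 and 337 CPM in Thy-Noc, and 313, 309 and 329 CPM in DMSO. All HU libraries were above all others, and the Thy-Noc and DMSO ranges overlapped. Its log2 fold change against DMSO was 0.69 ± 0.088 (1.62-fold, edgeR adjusted p 0.0180) and against Thy-Noc 0.59 ± 0.088 (1.51-fold, adjusted p 0.0354), where it was again the 1 gene called. With replicate numbers blocked the edgeR adjusted p was 0.0706 against DMSO and 0.104 against Thy-Noc, and in fits of the 6 libraries compared 0.0576 and 0.139. It was 0.0524 against Thy-Noc with no filter on low counts. Without any 1 of the DMSO libraries, or HU replicate 1 or 3, it was 0.0622 to 0.0720 against DMSO. Against Thy-Noc it was 0.0604 to 0.121 without any 1 library but HU replicate 2. DESeq2 called 13 of the 99 in HU against DMSO (13.1%, against 18.8% of all genes) and 8 in HU against Thy-Noc (8.08%, against 16.1%). In Thy-Noc against DMSO edgeR, DESeq2 and limma each called 0, and 2 had an unadjusted p under 0.05 by edgeR.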

How the data were processed

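RNA was measured in 9 Raji libraries in 3 groups of 3. Per the labels, a stranded mRNA kit was used. FastQC, Trim Galore, STAR, DESeq2 and GRCh38 are named, without versions or roles, per the submitters' processing notes. The sources used here do not give the counting program or its strand setting. The deposited table's name says CPM, but its values are whole numbers of at least 1 with unequal totals, and 274 genes stand at 1 throughout, so the authors' deposited values were taken to be expected counts.

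Symbols came from a table of gene names (15393 of 15436 identifiers matched), coordinates and overlaps from GENCODE release 29. With R 4.3.3 and edgeR 4.0.16, genes with at least 1 CPM in at least 3 libraries were kept (11346), scaled by TMM and fitted with a quasi-likelihood model of 3 groups over all 9 libraries (6 residual degrees of freedom, prior 1.25), 2-sided, with Benjamini-Hochberg adjustment and a threshold of 0.05. A standard error is the size of the log2 fold change over the root of F. The median expected count of a tested gene was 1187, so spread between libraries limits precision more than depth. Alternatives used DESeq2 1.42.0 and limma 3.58.1.

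Members, lists and tests were chosen with earlier results of these data known. Values are given in full for members called in any comparison, for those with an unadjusted p under 0.05 and no overlap, for SREBF1, SREBF2, SCAP, INSIG1, INSIG2, FASN, ACACA, SCD and ACLY, and mainly as ranges for the rest. Library values of HMGCS1, PMVK, CYP51A1, DHCR7, FDFT1, TM7SF2 and EBP, and some of MVK and LSS, fall outside this rule and were added after their values were seen.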

Additional observations from a re-analysis of the deposited data

How the results depend on the processing

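Results were recomputed with other filters, scalings, tools and fits, without each library in turn, and in 2 ways chosen after seeing the data (robust dispersions, and leaving unsteady genes, those with a 10-fold spread within a group, out of the fit). The number of members called in HU against DMSO was 1. It was 3 with DESeq2, 2 without unsteady genes in the fit, 0 with the replicate block, 0 with only the 6 libraries compared and 0 to 2 without single libraries. In Thy-Noc against DMSO it was 0, and 1 with DESeq2. In HU against Thy-Noc it was 1, and 3 with DESeq2, 0 with no filter, 0 with the block, 0 with the 6 libraries and 0 to 1 without single libraries. The count with unsteady members left out was the same in each comparison. Where these counts moved, the cause was not tested.

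Over all genes there were 404, 4 and 199 calls in HU against DMSO, Thy-Noc against DMSO and HU against Thy-Noc. In the same order the replicate block gave 9, 0 and 0, DESeq2 2135, 179 and 1826, no filter 220, 4 and 64, and the 6 libraries 51, 6 and 18. Without unsteady genes in the fit, HU against DMSO had 721 calls among 9508 genes, beside 2 among 22 members. Without single libraries its calls over all genes ran from 21 (without DMSO replicate 3) to 318 (without Thy-Noc replicate 1). Same-numbered libraries did not deviate together (r −0.035 to 0.041), so the numbers pair nothing by this measure.

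Among the 13 members given in full, 10 of 39 fold changes turned sign at least once, none past the threshold. In HU against DMSO, INSIG1 was −0.17 with limma at a pseudocount of 0.5 and −0.072 to 0.92 without single libraries; FADS2 was 0.16 and 0.013 with limma at 0.5 and 2, 0.056 with the block and −0.90 to 0.33 without single libraries; ACACA was 0.060 with total-count scaling and −0.078 to 0.0065 without single libraries; and ACLY was −0.17 to 0.40 without single libraries. In Thy-Noc against DMSO, SCD was −0.022 with total-count scaling and −0.043 to 0.11 without single libraries, STARD4 −0.21 to 0.34 and ACLY −0.045 to 0.49. In HU against Thy-Noc, ACLY was 0.040 with total-count scaling and −0.31 to 0.091 without single libraries, SCAP −0.79 to 0.27 and INSIG2 −0.079 to 0.52. Of the other 51 fold changes, 30 turned sign at least once, none past the threshold. Total-count scaling moved the median of all genes to 0.12 in HU against DMSO and 0.16 in HU against Thy-Noc.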
